A study of Mus musculus with 10 samples.

Results

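Whether blocking miR-342-3p changes gene expression was addressed here by setting 3 libraries of cells with a miR-342-3p sponge against 2 libraries of cells with a mutated form of the microRNA, 5 of the 10 libraries in the series. Members were taken by their titles. All 10 libraries came from iKCs, a mouse cell line, transduced with vectors that carry the fluorescent marker mOrange, and only living, marker-positive cells were sorted for RNA. The other vectors were a scrambled sponge (2 libraries) and a vector for overexpression of miR-342-3p (3 libraries). Libraries are titled as biological replicates, but nothing in the sources used here says how the cultures were separated, so every p-value below measures the spread between these libraries. The sponge vector and the mutated hairpin vector differ in their insert as well as in their relation to the microRNA, and the 2 differences cannot be told apart in this contrast. The scrambled sponge is the control of the same vector type, and its values follow the results of this contrast.

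The cells carried macrophage transcripts at high and even levels. In the 5 libraries Adgre1, the F4/80 antigen, lay between 418 and 465 CPM (counts relative to the library total, scaled with TMM factors), and Csf1r, the receptor for macrophage growth factor, between 2009 and 2334 CPM. The name iKCs is not spelled out in the sources used here, and the title of the series concerns liver macrophages. Of the markers that set resident Kupffer cells of the liver apart, Clec4f and Timd4 had 0 counts in all 10 libraries and Vsig4 had at most 0.063 CPM in the 5 compared here, so these 3 were absent or nearly so. Cd5l and Marco, also markers of Kupffer cells, were detected in all 5, at 2.23 to 2.79 CPM and 2.6 to 4.26 CPM. All 5 hepatocyte and cholangiocyte markers and all 6 lymphocyte, neutrophil and erythroid markers were under 1 CPM in these 5 libraries. The summed level of 8 endothelial and stellate markers was 25.0 to 25.9 CPM with the sponge and 29.9 to 31.9 CPM in the mutated control, most of it from the VEGF receptor Kdr (20.9, 20.2 and 20.1 against 27.1 and 25 CPM). Its part in the results below was not tested. Total counts ran from 41334252 to 50982195 in the 5 libraries and from 25713110 to 59260772 in all 10. Counts of sponge replicate 3 were deposited joined to those of a scramble library and were split before use.

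MicroRNAs guide an Argonaute protein to messenger RNAs, mainly through a seed at their 5′ end that pairs with sites in the 3′ untranslated region, and lower the stability and translation of those messengers. A sponge is a transcript with many binding sites that occupies a microRNA, so messengers with seed sites are released from it. MiR-342 is made from a hairpin in an intron of Evl, an actin regulator, and is expressed in blood cell lineages including macrophages. Mouse miR-342-3p is shown first, because the site searches below use its seed, with bases 2 to 8 in capitals. The hairpin follows with the part that becomes the mature 3p strand in capitals. Both are from RefSeq and lie on chr12:108658620-108658718 of GRCm38.p6, plus strand, with the mature strand at chr12:108658680-108658702.
mmu-miR-342-3p: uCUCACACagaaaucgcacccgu
Mir342 hairpin: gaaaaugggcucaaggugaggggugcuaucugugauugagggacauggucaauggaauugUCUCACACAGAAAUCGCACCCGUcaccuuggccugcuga

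Reads over the Mir342 hairpin separated the vector types. The gene had 0 counts in each of the 3 sponge libraries and in both scramble libraries, 136 and 133 counts (2.86 and 3.22 CPM) in the mutated control, and 8.22, 11.3 and 9.41 CPM with overexpression. Every library with a hairpin vector was thus above every library with a sponge vector. With a floor of 3 counts per library, which is at most 0.0703 CPM in the sponge group, Mir342 was at least 43.2-fold lower with the sponge than with the mutated hairpin (edgeR adjusted p = 0.000949). These are reads of polyadenylated RNA that contain the hairpin and not the mature microRNA, so they check the label of the hairpin vectors and say nothing of the amount of mature miR-342-3p or of sponge activity. Evl, the host gene, had 85.2, 95.9 and 89.1 CPM with the sponge and 83.9 and 90.8 CPM in the mutated control, overlapping ranges with a log2 fold change of 0.04 (SE 0.08).

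In the sponge libraries a small set of genes differed from the mutated control. EdgeR's quasi-likelihood test called 49 of 15767 tested genes at an adjusted p under 0.05, which is 0.311% of them. Of these, 19 rose (0.121%) and 30 fell (0.19%). In all 49 the 3 sponge libraries did not overlap the 2 control libraries, as was also the case for 34.5% of all tested genes. Most changes were modest: 26 were at least 1.5-fold, 18 of them falls and 8 rises, and 7 were at least 2-fold, all falls. The median log2 fold change was −0.74 among the falls and 0.48 among the rises. The falls included 5 genes of cystine import and antioxidant defence, and the rises 4 members of a cluster of paired immunoglobulin-like receptors on chromosome 7.

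**Figure D1:**
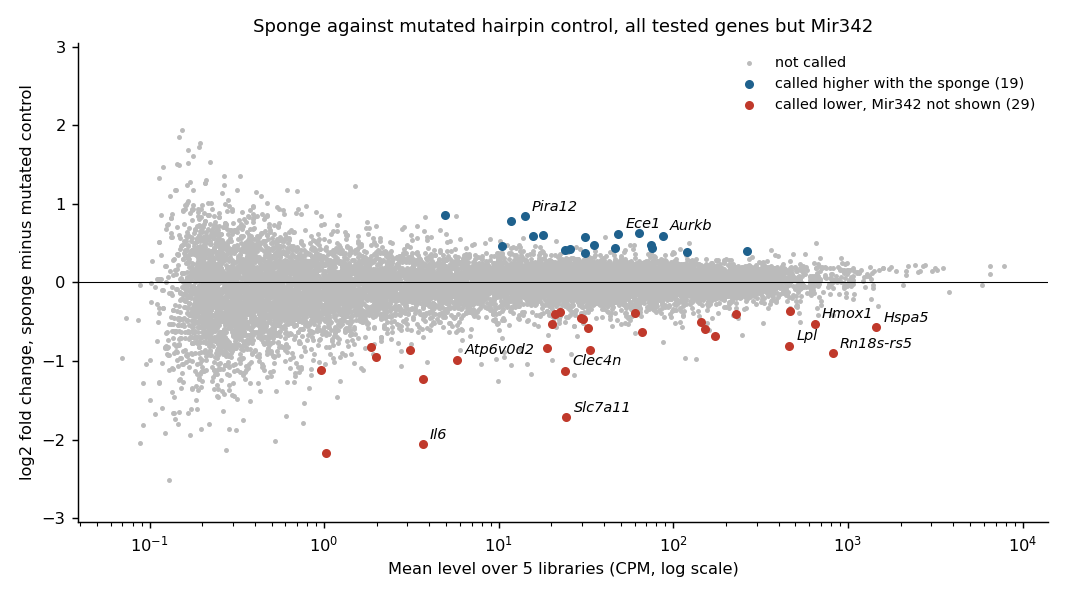
Log2 fold change (sponge minus mutated control, y axis) against the mean level over the 5 libraries (CPM, log x axis) for every tested gene but Mir342. Blue points are the 19 genes called higher, red points 29 of the 30 called lower, and grey points did not pass; the called falls reach −2.17 and the called rises 0.86.

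The number of calls rested on few libraries. With sponge replicates 1 and 2 alone, without the library whose counts had to be split, 38 genes were called and 29 of the 49 were among them. Without both joined libraries 12 were called, 11 of them among the 49. Leaving out sponge replicate 1 or 2 gave 7 and 25 calls, and leaving out replicate 1 or 2 of the mutated control gave 3 (Mir342, Slc7a11 and Il6) and 1 (Mir342). The lone control library is then assumed to vary like the other groups. Libraries outside the contrast mattered too, since all share 1 estimate of the spread: 12 calls without either scramble library, and 180, 16 and 60 without overexpression replicates 1, 2 and 3. All 49 genes kept their direction in each of these fits, which was close to fixed in advance, as their libraries do not overlap between the groups.

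Of the gene lists examined, that of cystine, glutathione and NRF2 genes held the most called falls. This list holds the transporter that imports cystine, the enzymes that build glutathione from it, and antioxidant enzymes under the transcription factor NRF2, a system that macrophages use against oxidants of their own making. Of its 28 tested members 5 fell (Slc7a11, Srxn1, Gclm, Txnrd1 and Hmox1), none rose, and 16 lay below 0, with a median log2 fold change of −0.06 beside −0.0036 over all tested genes. Over all tested genes 0.19% fell and 0.121% rose, which are the shares to set beside this and the later list counts. At an unadjusted p under 0.05 in edgeR 10 members were lower and 1 was higher, beside 971 lower and 926 higher of all 15767 tested genes. Such a lean was not particular to this list. Lower and higher genes numbered 13 and 1 of 29 in the inflammatory list and 11 and 1 of 19 in the alternative activation list. In the immediate early list they numbered 11 and 0 of 24, and in the interferon list 0 and 15 of 34. In bulk RNA a lower level can mean fewer cells that express a gene or less RNA in each, and the 2 cannot be told apart here or below.

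Slc7a11 (chromosome 3, 49846975 to 50398063, minus strand, in the coordinates of the deposited file) encodes the light-chain subunit of the antiporter that exchanges glutamate for cystine. It had 14.4, 11.6 and 12.3 CPM in the 3 sponge libraries and 40.6 and 43.1 CPM in the 2 mutated control libraries. The control libraries were far above all 3 sponge libraries. Slc7a11 fell from 41.9 ± 1.81 CPM (SD, n = 2) to 12.8 ± 1.43 CPM (SD, n = 3), which is 3.28-fold (log2 fold change −1.72, SE 0.16, edgeR adjusted p = 0.00297). It passed in 9 of the 10 fits with a library left out, all but that without replicate 2 of the mutated control, where the edgeR adjusted p was 0.0625. The partner chain of the antiporter, Slc3a2, had 321, 285 and 388 against 402 and 396 CPM (log2 fold change −0.27, SE 0.12, edgeR adjusted p = 0.411), with the highest sponge library just below the controls, and did not pass.

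Srxn1, the sulfiredoxin that repairs over-oxidised peroxiredoxins, had 118, 116 and 138 CPM in the 3 sponge libraries and 172 and 179 CPM in the 2 mutated control libraries. It fell by 0.51 on the log2 scale (SE 0.08, edgeR adjusted p = 0.0384). Gclm is the modifier subunit of the ligase that starts glutathione synthesis, and its libraries did not overlap (198, 198 and 212 against 255 and 278 CPM; log2 fold change −0.40, SE 0.06). Txnrd1, the cytosolic thioredoxin reductase, was close to even within each group, with 419, 415 and 413 CPM in the 3 sponge libraries and 519 and 547 CPM in the 2 mutated control libraries. It fell 1.28-fold (edgeR adjusted p = 0.0384). Hmox1, the haem oxygenase, fell 1.44-fold, from 726 and 857 CPM to 533, 514 and 603 CPM. Srxn1 and Gclm stand here because they complete the 5 called members and were picked after their values were seen.

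The 3 members next to the threshold had values below 0. Nfe2l2, which encodes NRF2 itself, had 258, 275 and 260.0 against 303 and 321 CPM (log2 fold change −0.24, SE 0.06, edgeR adjusted p = 0.133). Gsr, the glutathione reductase, had a log2 fold change of −0.22 (SE 0.06), and Gclc, the catalytic partner of Gclm, of −0.23 (SE 0.07); neither passed. Keap1, the inhibitor of NRF2, had 0.11 (SE 0.06). In the iron list 1 of 20 tested members fell, again Hmox1, and in the integrated stress list 1 of 25, again Slc7a11, with 21 of the 25 below 0 and a median of −0.13, which was 0.02 without sponge replicate 2 and −0.31 without sponge replicate 3. Hspa5, the main chaperone of the endoplasmic reticulum, also fell, with 1204, 1107 and 1316 CPM in the 3 sponge libraries and 1755 and 1837 CPM in the 2 mutated control libraries (edgeR adjusted p = 0.0335); all 3 sponge libraries were below both controls.

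**Figure D2:**
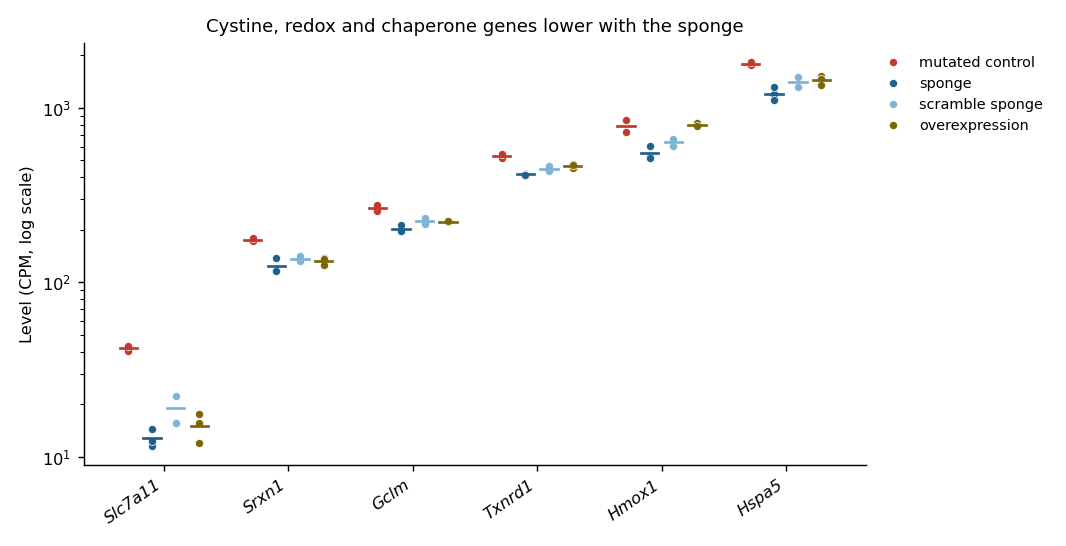
Level in CPM (log y axis) of 6 genes in each of the 10 libraries, by vector; points are libraries and short bars group means. Both mutated control libraries lie above all 3 sponge libraries for each gene, and the scramble libraries lie between or near the sponge; Hmox1 with overexpression reaches the level of the mutated control.

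Promoters were searched for 2 motifs, on both strands, in windows from 250 bases before to 50 bases after the annotated start (RefSeq, GRCm38.p6). The motifs were the antioxidant response element core TGACNNNGC and the amino acid response motif TGATGNAA. Matches are described for 4 of the 5 called falls of the cystine, glutathione and NRF2 list (Slc7a11, Gclm, Srxn1 and Txnrd1). The promoter of Hmox1 was not analysed here. These genes were picked as called falls, so their shared direction is no result. The first motif was in 14% of 27025 promoters, in 16.8% of those of 10514 tested genes and in 10 of 24 of this list (41.7%). The list was put together around genes under NRF2, so its share is given as description only. It was in 5 of 18 promoters of called falls and in 3 of 13 of called rises. The second was in 4.51% of all promoters, in 2.94% of those of tested genes and in 2 of 24 of this list (8.33%). It was in 1 of 18 called falls and in 1 of 13 called rises. Slc7a11 held no match to the first motif and 2 to the second, starting 66 and 47 bases before the start. Gclm had 1 match to the first, 134 bases before the start, and Srxn1 1, 28 bases after it; 1 of the annotated Txnrd1 promoters had 1 match, 92 bases before the start. A match describes letters in the window and not a bound site. The promoters of Slc7a11 (chr3:50443564-50443863, minus strand), Gclm (chr3:122245307-122245606, plus strand) and Srxn1 (chr2:152105274-152105573, plus strand) are shown with the matches in capitals.
Slc7a11 promoter: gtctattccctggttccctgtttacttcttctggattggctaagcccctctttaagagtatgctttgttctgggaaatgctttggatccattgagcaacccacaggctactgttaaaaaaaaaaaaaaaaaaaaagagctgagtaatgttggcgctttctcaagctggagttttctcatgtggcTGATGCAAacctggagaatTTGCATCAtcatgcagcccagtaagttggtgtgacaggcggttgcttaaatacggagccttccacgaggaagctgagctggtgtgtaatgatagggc
Gclm promoter: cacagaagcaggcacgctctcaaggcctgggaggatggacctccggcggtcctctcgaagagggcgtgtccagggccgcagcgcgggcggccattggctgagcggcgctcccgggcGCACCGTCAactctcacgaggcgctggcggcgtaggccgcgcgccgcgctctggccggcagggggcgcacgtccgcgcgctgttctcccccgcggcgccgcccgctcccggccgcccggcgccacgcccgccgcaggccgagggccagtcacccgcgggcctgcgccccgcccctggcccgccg
Srxn1 promoter: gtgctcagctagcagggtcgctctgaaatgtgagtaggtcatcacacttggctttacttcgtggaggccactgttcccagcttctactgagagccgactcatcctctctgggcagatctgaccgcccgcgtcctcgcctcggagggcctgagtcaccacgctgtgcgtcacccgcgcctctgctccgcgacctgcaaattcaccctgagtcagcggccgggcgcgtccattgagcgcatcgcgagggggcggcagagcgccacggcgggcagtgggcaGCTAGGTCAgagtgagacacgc

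Il6, an inflammatory cytokine, was at a low level, with 1.09, 2.03 and 1.69 CPM in the 3 sponge libraries and 5.21 and 8.3 CPM in the 2 mutated control libraries. The lower control library was still above the highest sponge library, and Il6 fell 4.18-fold (log2 fold change −2.06, SE 0.25, edgeR adjusted p = 0.0123). Of the 29 tested inflammatory cytokines and NF-kB targets it was the only one to pass, with 23 of the 29 below 0 and a median of −0.27. Ptgs2, the inducible cyclooxygenase, had 8.91, 13.8 and 7.94 against 21.3 and 24.6 CPM and was just outside the threshold (log2 fold change −1.16, SE 0.21, edgeR adjusted p = 0.0503). Ptgs1, the constitutive cyclooxygenase, fell: 24.8, 26.9 and 25.5 against 36.3 and 34 CPM (log2 fold change −0.45, edgeR adjusted p = 0.0319). Irak2, a kinase of interleukin-1 and Toll-like receptor signalling, fell 1.31-fold with almost no spread among the sponge libraries (53.6, 54.2 and 53.6 CPM, against 68.9 and 72.4 CPM). Ptgs1 and Irak2 lie outside the rule for named genes and were chosen after their values were seen.

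Among chemokines, Ccl9, a ligand of Ccr1, had 118, 129.9 and 128 CPM in the 3 sponge libraries and 175 and 202 CPM in the 2 mutated control libraries, and it fell 1.5-fold (SE 0.08 on the log2 scale, edgeR adjusted p = 0.0258). It was the 1 member called of 23 tested chemokines and receptors, of which 19 lay below 0 with a median of −0.39. Cxcl2, a neutrophil attractant, had 270.5, 275 and 293 against 390.5 and 409 CPM but did not pass (log2 fold change −0.52, SE 0.12, edgeR adjusted p = 0.121). Pf4, the chemokine CXCL4, fell 1.82-fold, from 41.5 and 49.6 CPM to 23.3, 25 and 26.8 CPM (edgeR adjusted p = 0.0384). Every sponge library was below both control libraries for Ccl9 and Pf4, as the rule for named genes required.

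Clec4n, which encodes dectin-2, a receptor for fungal mannans, had 14.5, 19.6 and 14.4 CPM in the 3 sponge libraries and 32.1 and 38.8 CPM in the 2 mutated control libraries. It fell 2.18-fold (log2 fold change −1.13, SE 0.16, edgeR adjusted p = 0.0309), while Clec4a2, an inhibitory lectin of the same gene cluster, had −0.32 (SE 0.11) and did not pass. Cd86, a ligand that costimulates T cells, fell 1.55-fold, from 78.7 and 89.3 CPM to 53.5, 62.4 and 46.5 CPM (edgeR adjusted p = 0.0486). Most of its list lay on the other side of 0: of 19 tested genes of antigen presentation and costimulation 15 lay above 0, with a median of 0.18, and none of them rose. The class I heavy chain H2-K1, for instance, had 2724, 2853 and 2992 against 2423 and 2507 CPM (log2 fold change 0.21, SE 0.08, edgeR adjusted p = 0.334).

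Lpl, the lipoprotein lipase, was the called gene of the lipid-associated macrophage list (1 of 20). It had 344, 399 and 319 CPM in the 3 sponge libraries and 577 and 659.8 CPM in the 2 mutated control libraries and fell 1.75-fold (edgeR adjusted p = 0.0486). Cd36, the scavenger receptor for fatty acids, sat just outside, with 626, 594 and 579 against 759 and 750.1 CPM (log2 fold change −0.33, SE 0.06, edgeR adjusted p = 0.0541), while 12 of the 20 members lay above 0. Atp6v0d2, a proton pump subunit of osteoclasts and fusing macrophages, fell 1.98-fold, with 4.11, 4.45 and 3.91 CPM in the 3 sponge libraries and 8.42 and 8.03 CPM in the 2 mutated control libraries (edgeR adjusted p = 0.0177). Of the 12 tested osteoclast and fusion genes it was the 1 called; 10 lay below 0, with a median of −0.53, and some were at a very low level, such as Acp5, the tartrate-resistant phosphatase, at 0.0889, 0.158 and 0.164 against 0.504 and 0.508 CPM. None of the 26 lysosome and proton pump genes passed, and 19 of these lay above 0.

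Other named falls were Bmp2, Odc1, Chst11 and Plk3. Bmp2, a bone morphogenetic protein, had 13.9, 17.3 and 11.9 CPM in the 3 sponge libraries and 25.2 and 26 CPM in the 2 mutated control libraries and fell 1.78-fold (edgeR adjusted p = 0.0384). Odc1, the first enzyme of polyamine synthesis, fell 1.6-fold, from 212 and 238 CPM to 127, 164 and 130.4 CPM (edgeR adjusted p = 0.0384). Chst11, a chondroitin sulfotransferase, had 28, 24.5 and 28.8 CPM in the 3 sponge libraries and 40.3 and 40.6 CPM in the 2 mutated control libraries and fell 1.49-fold. Plk3, a stress-responsive polo-like kinase, fell 1.44-fold, with 17.3, 16.3 and 18 against 22.7 and 26.9 CPM. All 4 had both controls above all 3 sponge libraries, as the rule for named genes required. None of the 24 immediate early genes passed, with 18 below 0 and a median of −0.28. Egr3, a growth-induced transcription factor, had 14.5, 19.9 and 19.1 CPM in the 3 sponge libraries and 26.6 and 54.4 CPM in the 2 mutated control libraries, where the control libraries themselves had an SD of 19.6 CPM (log2 fold change −1.18, SE 0.27, edgeR adjusted p = 0.113).

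**Figure D3:**
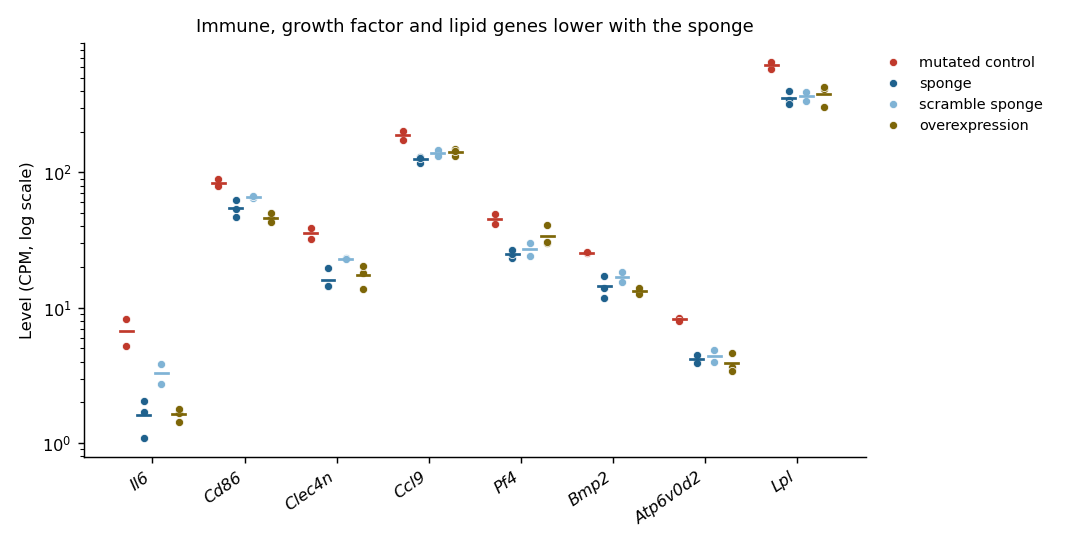
Level in CPM (log y axis) of 8 called genes in each of the 10 libraries, by vector; points are libraries and short bars group means. For each gene both mutated control libraries lie above all 3 sponge libraries and both scramble libraries.

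Further called falls are outside the rule for named genes and are given after their values were seen. Slc30a1, a zinc exporter, had 25.3, 27 and 26.7 against 36.4 and 36.1 CPM. Tsku, a secreted proteoglycan, Tma16, a ribosome biogenesis factor, Dlgap2, a scaffold protein, Slc24a5, a cation exchanger, and Eid3 fell by 0.38, 0.40, 0.94, 0.82 and 0.86 on the log2 scale. Eid3 (chromosome 10, 82702460 to 82703764, plus strand) lies inside the span of Txnrd1 (82669785 to 82733546) on the same strand, so reads of the 2 genes may not be separate. Gm19410 and Gm13431 are predicted genes at low level, the second of them next to Ptgs1 on chromosome 2. Rn18s-rs5, a ribosomal RNA sequence, had 683, 559 and 576 CPM with the sponge and 1320.3 and 938 CPM in the mutated control (log2 fold change −0.90, edgeR adjusted p = 0.0384). The libraries are labelled as polyadenylated RNA, and the part of this difference in the other results was not tested.

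The largest rises lay side by side. Paired immunoglobulin-like receptors are surface receptors of myeloid and B cells that bind class I molecules, the A members activating through Fc receptor gamma chain and Pirb inhibiting. Of 8 tested PIR and LILR genes between 3714408 and 3918502 on chromosome 7 (coordinates of the deposited file), 4 rose: Pira12, Lilra6, Pira2 and the predicted gene Gm10693. Over all 15767 tested genes 19 rose (0.121%). The set was taken from a window around Pira12, a called rise, after the values were seen. The 2 counts are therefore given as description only. Pira12 had 17.4, 17 and 17 CPM in the 3 sponge libraries and 9.79 and 9.31 CPM in the 2 mutated control libraries and rose 1.79-fold (log2 fold change 0.84, SE 0.08, edgeR adjusted p = 0.00297). Its sponge libraries were nearly identical and clear of the controls. Lilra6 rose 1.72-fold, from 8.46 and 8.03 CPM to 15.1, 13.9 and 13.6 CPM (edgeR adjusted p = 0.0123). Pira2 had 79.4, 75.2 and 67.1 CPM in the 3 sponge libraries and 49.7 and 45.8 CPM in the 2 mutated control libraries and rose 1.55-fold. Gm10693, named because it belongs to the cluster, had 6.22, 5.85 and 5.81 against 3.28 and 3.29 CPM.

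Of the 4 members that did not pass, 3 had all sponge libraries above both controls. Pira13 had 7.11, 7.68 and 6 against 3.82 and 3.9 CPM (log2 fold change 0.85, SE 0.16, edgeR adjusted p = 0.0541) and Pira1 had 17.2, 15.7 and 14.4 against 11.2 and 10.1 CPM (log2 fold change 0.56, SE 0.11, edgeR adjusted p = 0.068). Pirb, the inhibitory member, had 295, 298 and 288 against 237 and 238 CPM (log2 fold change 0.30, SE 0.05, edgeR adjusted p = 0.0506). The groups overlapped for the fourth, the pseudogene Pira2-ps1, which was at a very low level (0.4, 0.335 and 0.562 against 0.231 and 0.363 CPM, log2 fold change 0.54, SE 0.33, edgeR adjusted p = 0.559). The flanking genes did not pass: Rps9, a ribosomal protein gene before the cluster, had 0.13 (SE 0.11) and Lair1, a collagen receptor after it, −0.16 (SE 0.06). Within 300000 bases on either side of Pira12 24 genes were tested, 16 of them above 0, and the 4 called ones were all in the cluster. These genes are close copies of each other and the counting did not use strand, so how reads were divided among them is uncertain.

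**Figure D4:**
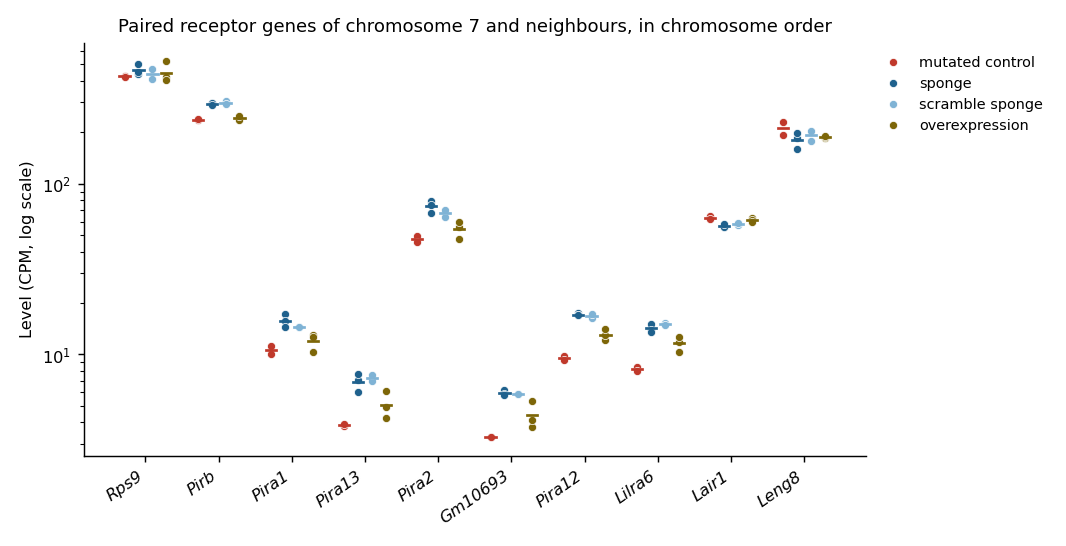
Level in CPM (log y axis) of 7 paired receptor genes (Pira2-ps1 is not shown) and 3 neighbours in chromosome order, in each of the 10 libraries by vector; points are libraries and short bars group means. All 7 receptor genes shown have both mutated control libraries below the sponge and the scramble libraries, while Rps9, Lair1 and Leng8 do not.

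Tgtp2, an interferon-induced GTPase with close copies in the genome, had 83.6, 82 and 85.3 CPM in the 3 sponge libraries and 57.9 and 62.2 CPM in the 2 mutated control libraries and rose 1.39-fold (edgeR adjusted p = 0.0123). Gbp6, a guanylate-binding protein, and Ifnar1, a chain of the type I interferon receptor, rose 1.35-fold and 1.31-fold; both were chosen after their values were seen. Of the 34 genes of the type I interferon response none passed, 33 lay above 0 and the median was 0.15, with 15 higher and 0 lower at an unadjusted p under 0.05 in edgeR, beside 926 higher and 971 lower of all 15767 tested genes. Irf7, its main transcription factor, had 584, 637 and 641 against 474 and 495 CPM (log2 fold change 0.36, SE 0.08, edgeR adjusted p = 0.121). Ifit1, an RNA-binding effector, had 91.2, 95.3 and 89.5 against 72.9 and 77.2 CPM and did not pass either (log2 fold change 0.29, SE 0.07, edgeR adjusted p = 0.115). In the scramble libraries these were 666 and 633 CPM for Irf7 and 100.1 and 101 CPM for Ifit1; those of Irf7 overlapped the sponge libraries and those of Ifit1 lay above them.

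Aurkb, the mitotic kinase of the chromosomal passenger complex, had 98, 102 and 101 CPM in the 3 sponge libraries and 68.6 and 64.1 CPM in the 2 mutated control libraries. It rose 1.51-fold (log2 fold change 0.60, SE 0.07, edgeR adjusted p = 0.00742) and was the 1 called of 30 cell cycle genes, of which 25 lay above 0 with a median of 0.16. Ccnb1, the mitotic cyclin, and Aurka, the related kinase, had 0.22 and 0.23 and did not pass, and Ccnd1, a cyclin of the G1 phase, varied widely (14.8, 7.56 and 21.4 against 20.4 and 37.3 CPM). Eme1, a DNA repair nuclease subunit, Ssrp1, a histone chaperone, and Champ1, a chromosome alignment protein, rose by 0.41, 0.40 and 0.37; these and Itpk1, an inositol phosphate kinase (0.43), were chosen after their values were seen.

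The other named rises had separate functions. Ece1, the enzyme that activates endothelin, had 57.4, 53.7 and 57.4 CPM in the 3 sponge libraries and 35.6 and 37.5 CPM in the 2 mutated control libraries and rose 1.54-fold (edgeR adjusted p = 0.0123). Btd, the enzyme that recycles biotin, rose 1.49-fold, from 24.4 and 24 CPM to 33.7, 35.5 and 39.1 CPM (edgeR adjusted p = 0.0123). Cd109, a co-receptor that dampens TGF-beta signalling, had 21.8, 21.7 and 18.6 CPM in the 3 sponge libraries and 13.4 and 14.1 CPM in the 2 mutated control libraries and rose 1.51-fold. Each of these had all sponge libraries above both controls, as the rule for named genes required. Fcho1, which starts clathrin-coated pits, rose 1.51-fold, and Marchf9, a membrane ubiquitin ligase, 1.38-fold. Map2k7, the kinase that activates JNK, rose 1.36-fold, with 52.3, 51.1 and 52.9 against 40 and 36.8 CPM. Dbp, a circadian transcription factor, rose 1.39-fold, with 40.1, 39.1 and 38.9 against 30.1 and 26.5 CPM.

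The scrambled sponge was then set against the same control. It shares the 2 mutated control libraries with the contrast above, so the values are given side by side and neither contrast backs the other. The scramble against the mutated control gave 4 called genes, 0.0254% of those tested: Mir342, lower, and Pira12, Lilra6 and Tgtp2, higher. That count was 2 without either replicate 1 or replicate 2 of the sponge, 1 without either mutated control library or without scramble replicate 1, 0 without scramble replicate 2, 36 without overexpression replicate 1 and 9 without overexpression replicate 3. Slc7a11 had 15.7 and 22.3 CPM in the scramble libraries, nearer to the sponge than to the mutated control, with a log2 fold change of −1.13 (SE 0.18, edgeR adjusted p = 0.104) against −1.72 for the sponge. Il6 had 2.74 and 3.83 CPM (−1.01 against −2.06). Lpl had 390.4 and 339 CPM (−0.76 against −0.81), and Ece1 53.2 and 56.6 CPM (0.59 against 0.62). Srxn1 had −0.36 against −0.51 for the sponge, Gclm −0.25 against −0.4, Txnrd1 −0.25 against −0.36 and Hmox1 −0.32 against −0.53. Among list medians, that of the cystine, glutathione and NRF2 list was −0.06 with both vectors. The interferon list had 0.22 with the scramble and 0.15 with the sponge, the chemokines −0.27 and −0.39, the cell cycle list 0.08 and 0.16.

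The direct contrast of the 2 sponge vectors tests whether they differ. EdgeR called 0 of 15767 genes there (0%), with a smallest adjusted p of 1. At an unadjusted p under 0.05 in edgeR there were 368, beside 1897 in sponge against mutated control. The 368 are a smaller share of the tested genes than the 0.05 that would pass if no gene differed. In the direct contrast DESeq2 called 1, a gene listed only by an Ensembl identifier and outside the 49, and limma-voom 0. None of the 49 genes passed, and 19 of them had an unadjusted p under 0.05 in edgeR, 17 of the 30 falls and 2 of the 19 rises. The 49 were chosen with the same sponge libraries that enter the direct contrast. That choice tilts these counts, so they are no further support for a difference between the 2 sponge vectors. For Slc7a11 the sponge minus scramble difference was −0.59 (SE 0.17, unadjusted p = 0.00523 in edgeR, adjusted p = 1), and for Il6 −1.05 (SE 0.27, adjusted p = 1). Clec4n had −0.50 (SE 0.17). Among the rises the difference was small: 0.03 (SE 0.08) for Pira12, −0.08 (SE 0.09) for Lilra6, −0.01 (SE 0.06) for Tgtp2 and 0.03 (SE 0.08) for Ece1. Dbp (0.26, SE 0.08) and Aurkb (0.18, SE 0.07) were the 2 rises with an unadjusted p under 0.05. A p that misses the threshold does not show that the 2 vectors act alike.

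Overexpression, which also shares the mutated control, was set beside the sponge gene by gene. Against the mutated control Slc7a11 had −1.49 with overexpression and −1.72 with the sponge, Il6 −2.06 and −2.06, Atp6v0d2 −1.09 and −0.98, and Ece1 0.69 and 0.62. For these 4 genes the vector meant to add the microRNA and the vector meant to block it lay on the same side of their shared control. The same held for every other called gene except Mir342 (1.66 with overexpression), Plk3 (0.45) and Hmox1 (0.01, SE 0.09). With the control shared, the signs of the 2 vectors are not independent of each other. The difference between the 2 was tested directly: edgeR called 121 genes (0.767%) in overexpression minus sponge, 76 higher and 45 lower, and 7 of the 49 were among them. That count of 121 also rested on few libraries. It was 14, 23 and 925 without sponge replicates 1, 2 and 3, and 13 and 582 without overexpression replicates 2 and 3. It was 45 without either mutated control library and 40 without either scramble library.

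Of the 7, Plk3 differed most after Mir342, with 34.6, 32.6 and 34.7 CPM with overexpression against 17.3, 16.3 and 18 CPM with the sponge (difference 0.98, SE 0.08, edgeR adjusted p = 0.000511). Hmox1 (795, 817 and 786 CPM; difference 0.54, SE 0.08) and Chst11 (33.5, 41.2 and 38.6 CPM; difference 0.48, SE 0.09) were higher with overexpression, near the level of the mutated control. Irak2 was higher too (difference 0.32). Pira12 (12.1, 13 and 14.1 CPM; difference −0.40, SE 0.07) and Gbp6 (difference −0.30) were lower, between the sponge and the mutated control. The seventh gene was Mir342 itself. Slc7a11 did not pass in this test (0.22, SE 0.16, edgeR adjusted p = 0.495).

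**Figure D5:**
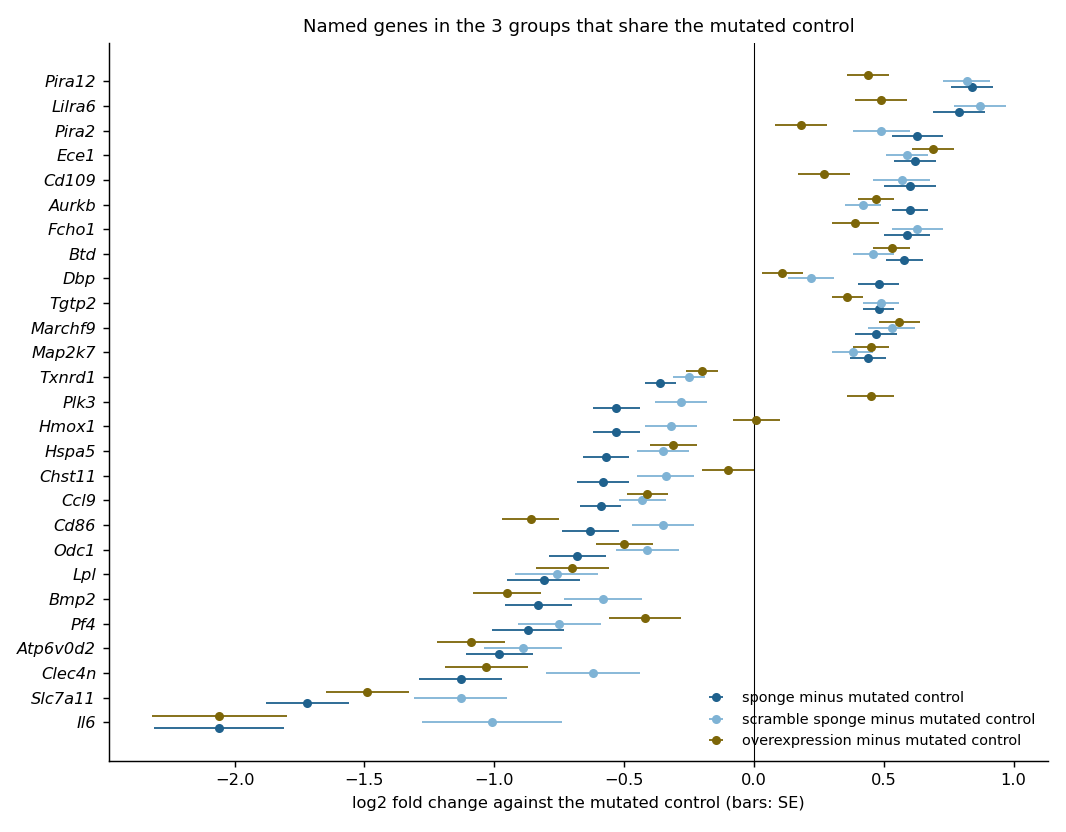
Log2 fold change against the mutated control (x axis; bars are SE) of the named called genes but Mir342, for the sponge, the scramble sponge and overexpression, which share the 2 mutated control libraries. Slc7a11 is at −1.72, −1.13 and −1.49 in that order, and Plk3 at −0.53 with the sponge and 0.45 with overexpression.

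Genes with a seed site of miR-342-3p were compared with genes that have none. The search covered, for each gene, the longest 3′ untranslated region (UTR) in the annotation: GTGTGAGA (8mer), GTGTGAG (7mer-m8) and TGTGAGA (7mer-A1), on the messenger strand, each gene counted under its best site. Of 576 tested genes with an 8mer none rose and 1 fell, with a median log2 fold change of −0.03. Of 1272 with a 7mer-m8 as best site 3 rose and 1 fell (median −0.018). Of 1085 with a 7mer-A1 none rose and 5 fell (median −0.025), and of 9154 with no site 14 rose and 20 fell (median 0.018). Among all 12087 tested genes with a UTR 17 rose and 27 fell. The share called was 0.174%, 0.314%, 0.461% and 0.371% in these 4 classes in turn, and 0.364% over all of them. UTR length differed greatly between these classes, with medians of 2675 bases for 8mer genes and 864 bases for genes with no site. Among genes with a UTR in the longest of 3 equal classes the median was −0.047 for 401 genes with an 8mer and −0.019 for 2126 with no site, in the middle class −0.012 for 138 and 0.012 for 3220, and in the shortest class 0.03 for 37 and 0.045 for 3808. In the sponge minus scramble contrast the medians were −0.005 for 8mer genes and 0.005 for genes with no site. There the order differed between length classes: −0.005 against −0.006 in the longest, −0.004 against 0.003 in the middle and −0.003 against 0.013 in the shortest. None of these differences was tested.

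Of the 44 called genes that have a UTR in the annotation, 5 had an 8mer or 7mer-m8 and 5 more, all falls, had a 7mer-A1 as best site. Slc7a11 is the 8mer gene, with its site at base 6981 of a 7364-base UTR (chr3:50365314-50365321, minus strand, GRCm38), and it fell. Slc30a1, which also fell, has a 7mer-m8 at base 1702 of 3492 (chr1:191911457-191911463, plus strand). The 3 genes with a 7mer-m8 that rose were Fcho1 (base 256 of 422, chr8:71708547-71708553, minus strand), Map2k7 (base 227 of 2068, chr8:4246056-4246062, plus strand) and Pira2 (base 407 of 1391, chr7:3837790-3837796, minus strand). In sponge minus scramble these 3 had −0.03 (SE 0.08), 0.06 (SE 0.07) and 0.14 (SE 0.10), none of which passed. The sites are shown with the match in capitals, from GENCODE vM21 transcripts, since they are the 8mer and 7mer-m8 sites of called genes; 7mer-A1 sites are not shown.
Slc7a11 site: tgtacaaacatgtgatGTGTGAGAtaaagc
Slc30a1 site: gagagctctgtgagtgGTGTGAGcgggag
Fcho1 site: gttcatctccagggctGTGTGAGctgcct
Map2k7 site: ctggggtcagccagcaGTGTGAGccccat
Pira2 site: acagttccttgtatgtGTGTGAGtgtgca

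Other 8mer genes with small p-values did not pass. Cd36 had −0.33 and Cdk6, a cell cycle kinase, −0.35 (edgeR adjusted p = 0.105). On the upper side, Cpped1, a phosphatase, had 49.2, 49.3 and 51.4 against 41 and 42.1 CPM (log2 fold change 0.27, SE 0.06, edgeR adjusted p = 0.117), with 46.6 and 46.4 CPM in the scramble libraries and 31.2, 32.8 and 34.3 CPM with overexpression. Its order over the vectors, noticed after the values were seen, was overexpression lowest and sponge highest, without overlap between any 2 of the 4 groups, and overexpression minus sponge passed (log2 fold change −0.61, SE 0.06, edgeR adjusted p = 0.00114). Egr3, another 8mer gene, passed there in the other direction (1.40, SE 0.25, edgeR adjusted p = 0.0368). Insig2, a regulator of sterol synthesis, had 37, 37.1 and 36.6 against 31.5 and 30.4 CPM (log2 fold change 0.25, SE 0.06, edgeR adjusted p = 0.121), and 34.3 and 35.3 CPM in the scramble libraries.

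Other lists had no called member. Their median log2 fold changes were 0.06 for 24 sterol genes, −0.07 for 15 genes of lipid efflux and fatty acid synthesis, −0.01 for 24 glycolysis and hypoxia genes, −0.16 for 17 matrix genes and 0.07 for 25 genes of oxidative phosphorylation. The 19 alternative activation genes had a median of −0.23 with 15 below 0, and the 25 signalling and feedback genes −0.16 with 18 below 0. Atp5b, a subunit of the mitochondrial ATP synthase, had 726, 680.0 and 827 against 531 and 523 CPM, just outside the threshold (log2 fold change 0.50, SE 0.09, edgeR adjusted p = 0.052). In the microRNA pathway list none of 19 passed, and Ago3 and Dicer1 had −0.28 (SE 0.22) and −0.20 (SE 0.11). Macrophage identity genes were centred on 0, with 14 of 28 on either side.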

How the data were processed

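Polyadenylated RNA was measured in 10 libraries. Per the file headers, the authors deposited whole-number counts of read pairs per gene, made with featureCounts 2.0.1 on GENCODE vM30, with a minimum overlap of 10 bases and strand setting 0. The header's command names 12 libraries; 10 are analysed here. The submitters' processing notes list STAR 2.7.6a, FastQC 0.11.6, Trimmomatic and the build GRCm38; the file's coordinates differ from that build and are given as deposited. Sequences and sites come from GRCm38 tables (UTRs matched for 20816 genes, 20444 by symbol and 372 by an older symbol).

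Lines hold 15 fields under 16 names. Joined counts were split at the likeliest place under a negative binomial distribution (dispersion 0.1, likelihood ratio at least 100), and 51 of 55866 genes were left out. In 24 pairs joined on purpose at least 99.91% of genes were recovered, and of genes with a mean count of 10 or more at most 6 were kept with a wrong split. The scramble library in the joined field was taken from the header's order; this fixes its group, while the replicate number stays uncertain.

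EdgeR 4.0.16 (R 4.3.3; quasi-likelihood, robust, TMM, expression filter by group) fitted all 10 libraries together, with 6 residual degrees of freedom, and p-values were adjusted by Benjamini-Hochberg over 15767 genes at a threshold of 0.05. The functions were tested on simulated data. DESeq2 1.42.0, limma-voom (limma 3.58.1), other scalings and filters, replicate blocks and left-out libraries were the alternatives. Named genes were Mir342, Evl, Slc7a11 and up to 2 called genes per list. Added to them were the 12 called genes with the largest increase and the 12 with the largest decrease. The genes of largest change had to have a mean log2 CPM of 2 or more, a standard symbol and no overlap between the sponge and mutated control libraries. Members, lists and tests were chosen with earlier results of these data known.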

Additional observations from a re-analysis of the deposited data

Results flagged for a closer look

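Among the named genes other than Mir342, which also passed but whose fitted fold has no bound with 0 counts in every sponge library, 4 had effects of overexpression and of the sponge, both taken against the mutated control, that differed in the direct test of overexpression minus sponge (edgeR adjusted p under 0.05 in the fit over all 10 libraries). The difference was 0.98 for Plk3, a polo-like kinase, 0.54 for Hmox1, the haem oxygenase, and 0.48 for Chst11, a chondroitin sulfotransferase, each higher with overexpression. It was −0.4 for Pira12, a paired immunoglobulin-like receptor, lower with overexpression. The count of genes that passed this test moved strongly with single libraries.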

How the results depend on the processing

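All 49 genes called for the sponge against the mutated control kept their direction under every alternative in which they were tested. In all 49 the libraries of the 2 groups do not overlap, so this outcome was close to fixed in advance and is no further support. The number of calls did not keep. Against the main 49, 4, 0 and 121 calls (sponge against mutated control, scramble against mutated control, sponge against scramble, overexpression against sponge), DESeq2 gave 293, 82, 1 and 666, and no filter on low counts gave 468, 149, 24 and 1155. A fit with a replicate block by title number gave 3, 1, 0 and 24, and by library number 4, 1, 0 and 27. The difference between 2 sponge libraries was correlated over 10320 genes with that between the 2 mutated control libraries of matching numbers. The correlation was 0.026 by title number and 0.066 by library number. Each value rests on a single pair of libraries in each of these groups, and the other groups were not compared. The values therefore cannot decide whether the numbers pair the libraries, and the cause of these losses was not tested. With only the compared groups in the fit the counts were 28, 574, 0 and 15, and without both joined libraries 12, 1, 0 and 234. A mean log2 CPM of at least 2 gave 34 in the first and 73 in the last contrast. With 1 library left out the ranges were 1 to 180, 0 to 36, 0 to 0 and 13 to 925; the log2 fold change of Evl, 0.04, ran from −0.01 to 0.11. The alternatives of overexpression against sponge were chosen after seeing the data. List medians with a library left out kept their sign for the interferon (0.13 to 0.21), chemokine (−0.55 to −0.27), inflammatory (−0.3 to −0.21), osteoclast (−0.53 to −0.33) and cell cycle (0.15 to 0.16) lists. Over the same fits the median of the cystine, glutathione and NRF2 list ran from −0.1 to 0.0. The sign changed for the integrated stress (−0.31 to 0.02), iron (−0.07 to 0.01), sterol (−0.08 to 0.18), glycolysis (−0.09 to 0.05), oxidative phosphorylation (−0.01 to 0.1), microRNA (−0.06 to 0.03), lectin and Fc receptor (−0.07 to 0.01) and endothelial and stellate (−0.05 to 0.09) lists. With fewer libraries the counts of calls moved both up and down. The cause of the changes in counts and medians was not tested for any setting. Depth limits the value of Mir342 in the sponge libraries, where counts of 0 allow a lower bound of the fold alone.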
